A study of Mus musculus with 6 samples.

Results

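The 10 genes described here are parts of the circadian clock, chosen by name: Arntl (which encodes BMAL1), Clock, Npas2, Per1, Per2, Per3, Cry1, Nr1d1, Nr1d2 and Dbp. All 10 have at least 1 probe set whose annotation gives that gene alone, and they hold 17 of the 22626 probe sets tested. The arrays measured muscle RNA of 3 TFEB KO and 3 wild-type (WT) mice, all C57BL/6 and 1 month old, with 1 array per mouse. In the TFEB KO mice a floxed Tcfeb gene (the older name of Tfeb) was deleted by Cre under the MLC1f promoter, which acts in skeletal muscle fibers, so the other cells of the tissue are not its target. The sources used here do not give which muscle was taken, at what time of day, or whether the WT mice carried Cre or floxed alleles. The values are log2 values made by the authors with RMA, a procedure that corrects the background, brings the arrays to a common distribution and joins the probes of a set into 1 value.

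The clock is a loop of transcription that runs once a day in nearly every cell, muscle fibers included. BMAL1 pairs with CLOCK or its relative NPAS2 and activates genes through the E-box, a short DNA element, among them those of the PER and CRY proteins, which return to the nucleus and block the pair. In a second loop the receptors REV-ERBα (Nr1d1) and REV-ERBβ (Nr1d2) repress Arntl at elements named RORE, and DBP carries the rhythm to other genes through the D-box. Transcripts of the Per genes and Dbp therefore peak at another time of day than that of Arntl.

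Tfeb itself was 7.10, 7.23 and 7.04 in the TFEB KO arrays and 8.61, 8.55 and 8.96 in the WT arrays, a log2 fold change of -1.58 (standard error, SE, 0.13, adjusted p = 0.0079 from limma). Correlations between arrays of all tested probe sets were 0.992 to 0.9967 for arrays of the same group and 0.9889 to 0.9934 for arrays of different groups. Of 10 markers of skeletal muscle fibers, all measured, 0 were called, and their summed linear level was 225200 to 235100 in TFEB KO and 231400 to 234500 in WT arrays. That sum is carried by markers close to the highest value of any array (14.93). Of the 10, 6 lay above 0 and 4 below. Myh2, with the smallest p, was at -0.57 without overlap (adjusted p = 0.098 from limma). Of 15 macrophage markers 6 rose (summed level 6563 to 10440 in TFEB KO and 2433 to 4231 in WT arrays), and of 11 endothelial markers 6 fell (1803 to 2098 in TFEB KO and 2654 to 3056 in WT arrays). In the marker lists of tendon and cartilage 4 of 7 measured fell, of smooth muscle 2 of 8, of Schwann cells 1 of 6, and of adipocytes 0 of 5 were called. Over all genes 0.871% were called higher and 0.702% lower. Called or not, all 15 macrophage and all 5 adipocyte markers lay above 0. All 11 endothelial, 7 tendon and cartilage and 6 Schwann cell markers lay below 0, and of smooth muscle 7 lay below and 1 above. TFEB KO 1 stood apart in the adipocyte markers, with a summed level of 12360, against 4727 and 5465 in TFEB KO 2 and 3 and 4857 to 5751 in WT arrays. RMA gives no value of 0, and 1 macrophage marker lay in the dimmest 25% of probe sets. The clock runs in these cells too, their part in the results below was not tested, and in whole tissue fewer cells of a type and less RNA per cell cannot be told apart.

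Per3 was the only clock gene called lower in TFEB KO muscle, and the call was lost when any array but WT 2 was left out. On its brightest probe set, the value was 6.99 ± 0.11 in TFEB KO and 7.95 ± 0.31 in WT muscle (SD, n = 3 mice each), or 1.94-fold lower. Per1, Per2 and Dbp lay lower too, and Arntl, Clock and Npas2 lay higher, without passing the test. Much of this rested on the array WT 3 in some genes. Without WT 3 the log2 fold changes of Per1, Per2 and Arntl were -0.16, -0.22 and 0.37 on their brightest probe sets. The REV-ERB receptors and Cry1 lay near 0 on their brightest probe sets. By limma, with Benjamini-Hochberg adjustment over all 22626 probe sets and a threshold of 0.05, 1 of the 10 genes was called lower and 0 higher on their brightest probe sets, where 0.702% of 12393 genes were called lower and 0.871% higher. In probe sets, 1 of 17 was called lower and 0 higher (0.844% and 0.751% of all). At an unadjusted p under 0.05, 5 of 17 were lower and 3 higher (9.40% and 7.81% of all), and the methods' t-test after adjustment called 0. In 5 of 17 all TFEB KO arrays lay below all WT arrays, and in 2 of 17 above them, as they did in 13.3% and 9.77% of all probe sets. Probe sets of the same gene are not independent, and the 5 lower ones are of Per2, Per3 and Dbp. On the brightest probe sets of the 10 genes, 2 were lower and 2 higher at an unadjusted p under 0.05 by limma. Of these 10, 2 lay lower and 1 higher without overlap. The median log2 fold change of the 10 genes was -0.12, beside -0.01 over all genes.

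**Figure D1:**
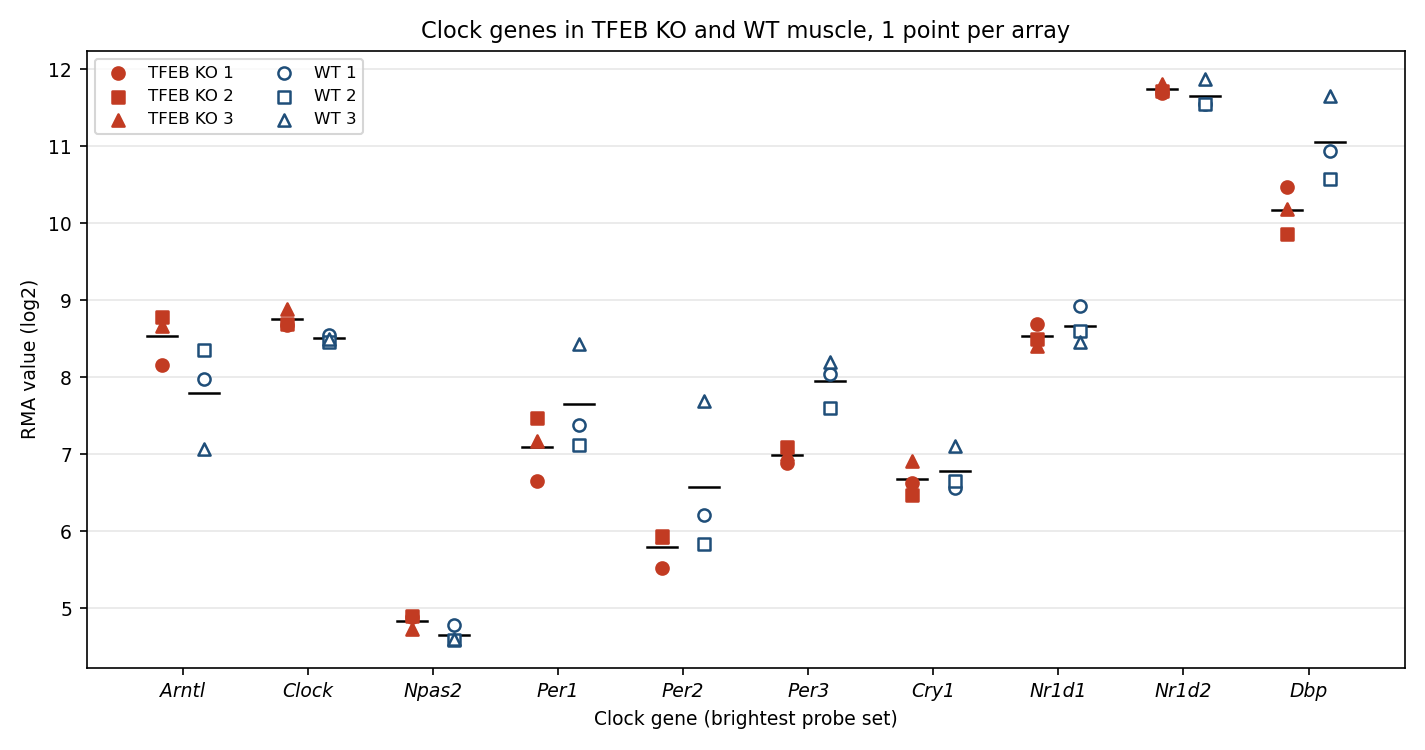
RMA value (log2, vertical axis) of the brightest probe set of each of the 10 clock genes, with 1 point per array for 3 TFEB KO (filled) and 3 WT (open) mice and a bar at each group's mean. The TFEB KO arrays of Per3 lie between 6.88 and 7.09, below the WT arrays at 7.60 to 8.20, and WT 3 stands apart from the other WT arrays in Arntl, Per1, Per2 and Dbp.

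Per3 encodes the third of the Period proteins, and its message is among the most rhythmic of mouse tissues. Its promoter is shown because it is that of the gene called, and because it holds D-boxes, the element that DBP binds. The sequence is the 250 bases before the start of the transcript in RefSeq (GRCm38.p6, minus strand, chr4:151044666-151044915), with the D-boxes in capitals.
Per3: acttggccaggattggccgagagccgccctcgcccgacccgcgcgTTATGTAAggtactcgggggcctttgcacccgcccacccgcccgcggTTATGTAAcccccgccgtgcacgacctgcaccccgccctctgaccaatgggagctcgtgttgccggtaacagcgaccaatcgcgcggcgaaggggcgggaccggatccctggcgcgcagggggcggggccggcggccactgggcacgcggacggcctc
Counted from the start, the D-boxes span bases -205 to -198 and -158 to -151. The D-box letters searched were TTATGTAA or TTACGTAA, on both strands. Of 32851 RefSeq windows that run from 250 bases before to 50 bases after a start, 1.06% hold a D-box and 0.0244% hold 2 or more. A match of letters is a description and does not show that the site is bound.

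The brightest probe set of Per3 read 6.88, 7.09 and 7.00 in the TFEB KO arrays and 8.04, 7.60 and 8.20 in the WT arrays. Every TFEB KO array lay below every WT array (p = 0.10 by a two-sided exact permutation test, which cannot give less with 3 arrays against 3). The log2 fold change was -0.95 (SE 0.15, 95% interval -1.31 to -0.60, adjusted p = 0.031 from limma). The second probe set of the gene read 4.85, 5.11 and 4.59 in TFEB KO and 5.47, 5.19 and 5.41 in WT arrays, again without overlap, at -0.51 (adjusted p = 0.13). The third lies in the dimmest 25% of all probe sets, at 4.59, 4.37 and 4.72 in TFEB KO and 4.89, 4.52 and 4.74 in WT arrays, where the groups overlap, at -0.16 (adjusted p = 0.60). The call of Per3 held without WT 2 (adjusted p = 0.035) and was lost without any other array, narrowly without KO 1 (0.053) and most without WT 1 (0.13), while the log2 fold change stayed between -0.83 and -1.13. With the mean of its 3 probe sets it was -0.54 (adjusted p = 0.0501).

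Per2, the Period gene most needed for rhythm in the mouse together with Per1, lay lower on both of its probe sets. The brighter read 5.52, 5.94 and 5.92 in TFEB KO and 6.21, 5.83 and 7.69 in WT arrays, so that WT 3 was far above the rest and WT 2 within the range of the TFEB KO arrays. Its log2 fold change was -0.78 (95% interval -1.72 to 0.16, adjusted p = 0.39 from limma), and -0.22 without WT 3. The dimmer probe set read 4.72, 5.17 and 4.99 in TFEB KO and 5.56, 5.35 and 5.90 in WT arrays. Here the groups did not overlap, and the log2 fold change was -0.64 (SE 0.17, adjusted p = 0.10), or -0.49 without WT 3.

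Per1, which light and glucocorticoids also induce, read 6.65, 7.48 and 7.17 in TFEB KO and 7.38, 7.13 and 8.43 in WT arrays. The highest of these is again WT 3, and the other WT arrays lie within the TFEB KO range. The log2 fold change was -0.55 (95% interval -1.31 to 0.21, adjusted p = 0.46 from limma) with all arrays and -0.16 without WT 3. Cry1, the cryptochrome that blocks the activators together with the PER proteins, read 6.63, 6.47 and 6.91 in TFEB KO and 6.56, 6.66 and 7.11 in WT arrays. The groups overlap, and the log2 fold change was -0.10 (95% interval -0.49 to 0.28, adjusted p = 0.81) and turned to 0.06 without WT 3. All 7 probe sets of the 4 Per and Cry genes lay below 0. In 3 of them, of Per2 and Per3, all TFEB KO arrays lay below all WT arrays, as they did in 13.3% of all probe sets.

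The promoters of Per1 and Cry1 are shown for the E-box, CACGTG, through which BMAL1 and CLOCK act. It is also the core of the CLEAR palindrome, a form of the element that TFEB binds. Both are the 250 bases before a RefSeq start (GRCm38.p6), Per1 on the plus strand at chr11:69098699-69098948 and Cry1 on the minus strand at chr10:85185055-85185304. Capitals mark E-boxes and, in Cry1, also the variant CACGTT, read here on the other strand as AACGTG.
Per1: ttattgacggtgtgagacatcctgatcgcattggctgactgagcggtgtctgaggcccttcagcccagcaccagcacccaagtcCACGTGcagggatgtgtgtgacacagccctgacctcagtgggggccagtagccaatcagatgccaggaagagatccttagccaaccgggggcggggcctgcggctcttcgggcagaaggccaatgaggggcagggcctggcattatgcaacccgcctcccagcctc
Cry1: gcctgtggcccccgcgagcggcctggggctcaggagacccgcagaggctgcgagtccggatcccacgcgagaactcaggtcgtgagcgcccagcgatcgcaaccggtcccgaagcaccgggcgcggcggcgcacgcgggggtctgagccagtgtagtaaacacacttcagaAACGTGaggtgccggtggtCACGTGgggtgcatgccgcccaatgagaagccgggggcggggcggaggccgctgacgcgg
Of the 10 genes, 9 have windows in the RefSeq table, 13 in all, and Per2 has none. The E-box is in 2 of the 13 windows (7.15% of all windows), those printed here, and the variant in 2 (4.68% of all), of Cry1 and Nr1d1. The CLEAR palindrome, which contains the E-box, is in 0 of the 13 (0.326% of all), and the cAMP response element TGACGTCA in 0 (1.79% of all), both strands searched.

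Arntl encodes BMAL1, without which the clock of the mouse stops. It read 8.16, 8.78 and 8.66 in TFEB KO and 7.97, 8.35 and 7.07 in WT arrays. WT 3 was the lowest by far, and WT 2 lay above TFEB KO 1, so the groups overlap. The log2 fold change was 0.74 (SE 0.30, 95% interval 0.04 to 1.43, adjusted p = 0.26 from limma), and 0.37 without WT 3. A RORE of its promoter region, an element where REV-ERB receptors act, is shown with its core TAGGTCA in capitals (RefSeq, GRCm38.p6, plus strand, chr7:113207530-113207559).
Arntl: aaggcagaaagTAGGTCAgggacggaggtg
The core starts at base 31 of the transcript. It is in 1 of the 13 windows of the clock genes and in 2.61% of all windows, both strands searched. Only the exact letters TAGGTCA were searched, so RORE of other letters are not counted.

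Clock, the partner of BMAL1, read 8.68, 8.69 and 8.89 in TFEB KO and 8.54, 8.46 and 8.50 in WT arrays on its brighter probe set. All TFEB KO arrays lay above all WT arrays by a small margin, at a log2 fold change of 0.25 (SE 0.10, adjusted p = 0.23 from limma). The dimmer probe set overlapped between the groups, at 0.19 (95% interval -0.14 to 0.52, adjusted p = 0.55). Npas2, which can stand in for CLOCK, was dim. Its brighter probe set read 4.88, 4.90 and 4.73 in TFEB KO and 4.78, 4.59 and 4.60 in WT arrays, a log2 fold change of 0.18 (adjusted p = 0.40), with TFEB KO 3 below WT 1. The other, in the dimmest 25%, read 4.40, 4.74 and 4.31 in TFEB KO and 4.07, 4.12 and 3.73 in WT arrays without overlap, at 0.51 (SE 0.15, adjusted p = 0.13). All 5 probe sets of the activators lay above 0. In 2 of them, of Clock and Npas2, all TFEB KO arrays lay above all WT arrays, as they did in 9.77% of all probe sets.

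The REV-ERB receptors, which repress Arntl, lay near 0 on their brightest probe sets. Nr1d1 read 8.69, 8.50 and 8.41 in TFEB KO and 8.93, 8.60 and 8.45 in WT arrays, with the groups interleaved. Its log2 fold change was -0.13 (95% interval -0.44 to 0.19, adjusted p = 0.70 from limma), and 0.01 without WT 1. Nr1d2 was the brightest of the 10 genes' probe sets, at 11.69, 11.72 and 11.80 in TFEB KO and 11.54, 11.54 and 11.87 in WT arrays. Its log2 fold change was 0.08 (95% interval -0.18 to 0.34, adjusted p = 0.77), while its dimmer probe set stood at -0.27 (95% interval -0.67 to 0.14, adjusted p = 0.50), with TFEB KO 3 at 6.97 and every other array at 7.54 to 7.82. With the mean of both the gene stood at -0.09 (adjusted p = 0.75), so its direction is not settled.

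Dbp, a D-box activator whose message has one of the widest daily swings known, lay lower on both of its probe sets. The brighter, of a type that can also detect related transcripts, read 10.47, 9.86 and 10.19 in TFEB KO and 10.94, 10.57 and 11.65 in WT arrays. TFEB KO 1 was the highest of its group and still below WT 2, the lowest of the WT arrays, and the log2 fold change was -0.88 (SE 0.26, 95% interval -1.49 to -0.28, adjusted p = 0.14 from limma). The dimmer probe set read 9.76, 9.20 and 9.21 in TFEB KO and 10.53, 10.04 and 10.95 in WT arrays. It did not overlap either, at -1.11 (SE 0.24, 95% interval -1.66 to -0.57, adjusted p = 0.061), or 2.17-fold lower. This probe set passed the test without KO 1 (adjusted p = 0.045) and after a second quantile normalization (adjusted p = 0.04998), and by no other adjusted test. Without WT 3 the probe sets stood at -0.58 and -0.89.

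**Figure D2:**
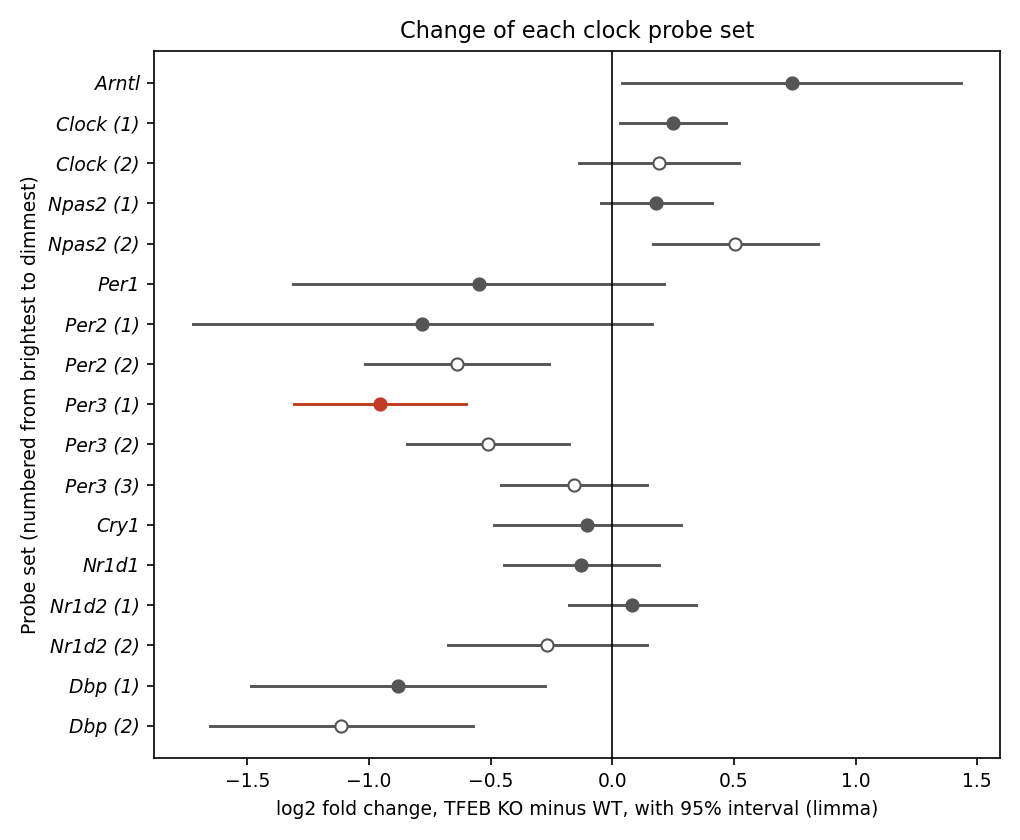
Log2 fold change (TFEB KO minus WT, horizontal axis) with its unadjusted 95% interval from limma for each of the 17 clock probe sets, filled for the brightest of a gene and open for the others, and red for the probe set that passed the test. The activators lie right of 0, the Per genes and Dbp left of it at -0.16 to -1.11, and Cry1, Nr1d1 and Nr1d2 between -0.27 and 0.08.

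The WT arrays differed among themselves in the clock genes, and WT 3 was the array farthest from the TFEB KO mean in 11 of the 17 probe sets (6 of the 10 genes on the brightest), where it was farthest in 33.5% of all probe sets. Against the mean of WT 1 and WT 2, it was higher by 1.67 in Per2, 1.18 in Per1, 0.89 in Dbp, 0.50 in Cry1 and 0.38 in Per3 on the log2 scale, and its Arntl value was lower (-1.09). These are values of the brightest probe sets, and in Per3 WT 3 lay close to WT 1, with WT 2 the lowest. On the brightest probe set of Clock WT 3 was level with the other WT arrays (-0.0024), and on the dimmer one its value was lower (-0.44). It was lower in Nr1d1 (-0.31), and higher on both probe sets of Nr1d2 (0.33 and 0.23), of which the brighter was higher and the dimmer lower in TFEB KO than in WT muscle, neither passing the test. Without WT 3 the call of Per3 was lost, and the log2 fold changes of Per1, Per2 and Arntl were -0.16, -0.22 and 0.37, while those of Per3 and Dbp were -0.83 and -0.58. Contractile genes of slow fibers, a list added after the values were seen, divided the arrays in another way. Relative to WT the median of its 9 measured genes was -0.80, -0.52 and -0.63 in the TFEB KO arrays and 0.29, 0.46 and -0.83 in the WT arrays (summed level 19940 to 25960 in TFEB KO and 24370 to 52890 in WT arrays), with 0 called. In that list WT 3 lies with the TFEB KO arrays, while on the brightest probe sets of the Per genes and Dbp it lies on the far side of the other WT arrays. The median of 15 macrophage markers, relative to WT, was 1.46, 0.84 and 0.78 in TFEB KO and 0.34, 0.07 and -0.43 in WT arrays. There WT 3 lies farthest from the TFEB KO arrays. That of 11 endothelial markers was -0.73, -0.45 and -0.49 in TFEB KO and 0.04, 0.06 and -0.07 in WT arrays, with WT 3 nearest. The part of fiber type or of other cells in the clock values was not tested.

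**Figure D3:**
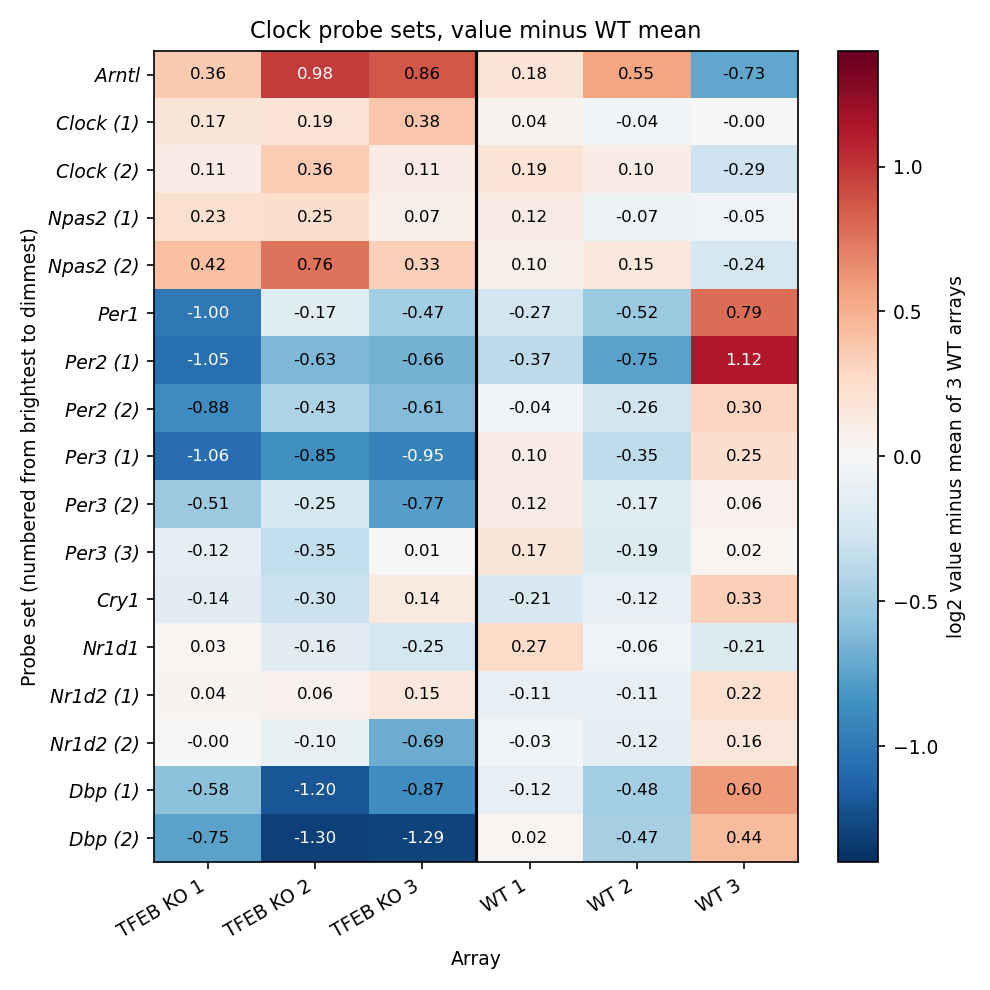
Log2 value minus the mean of the 3 WT arrays for each of the 17 clock probe sets (rows, numbered from brightest to dimmest within a gene) in the 3 TFEB KO and 3 WT arrays (columns), red above and blue below the WT mean. WT 3 is at 1.12 in the brighter Per2 probe set and at -0.73 in Arntl, and the TFEB KO arrays are at -0.85 to -1.06 in the brightest Per3 probe set.

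Other factors of the loop were counted over 9 measured genes. By limma 0 were called, and 1 was higher and 1 lower at an unadjusted p under 0.05 (7.81% and 9.40% of all probe sets). The methods' t-test gave 0 with and without adjustment, and the median log2 fold change was -0.15. Nfil3, which represses at D-boxes where DBP activates, read 7.68, 8.38 and 8.63 in TFEB KO and 7.37, 7.70 and 7.65 in WT arrays. TFEB KO 2 and 3 were above all WT arrays and TFEB KO 1 among them, at a log2 fold change of 0.66 (SE 0.22, adjusted p = 0.19), which passed the test without KO 1 (0.94, adjusted p = 0.028). Hlf, an activator of the DBP family, read 6.89, 6.84 and 6.84 in TFEB KO and 7.19, 7.10 and 7.83 in WT arrays, without overlap, at -0.52 (SE 0.18, adjusted p = 0.19), and its dimmer probe set overlapped, at -0.45 (adjusted p = 0.23). Tef, the last of that family, had a brightest probe set at -0.18 (adjusted p = 0.46), with -0.86 (adjusted p = 0.061) on a dimmer one and -0.09 (adjusted p = 0.92) on the dimmest, so its probe sets disagree. The E-box repressors Bhlhe40 (-0.35) and Bhlhe41 (-0.15), the activator Rora that opposes the REV-ERB receptors (0.03), its relative Rorb (-0.12), the BMAL1 paralog Arntl2 (-0.19) and Cry2 (0.01) had adjusted p-values of 0.34 to 0.99 on their brightest probe sets. Of the dimmer probe sets of Rora, one overlapped, at -0.16 (adjusted p = 0.61), and one lay lower without overlap, at -0.44 (adjusted p = 0.11).

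Genes that the clock drives in muscle or other tissues were counted over 12 genes, all measured. By limma 0 were called, and 3 were higher and 2 lower at an unadjusted p under 0.05 (7.81% and 9.40% of all probe sets). The median log2 fold change was 0.02. Usp2, a ubiquitin protease that cycles in phase with the Per genes in many tissues, read 10.38, 10.59 and 10.57 in TFEB KO and 11.04, 10.70 and 11.42 in WT arrays, at -0.54 (SE 0.17, adjusted p = 0.16). Its groups did not overlap, and WT 3 was the highest array here too. On its dimmer probe set the groups overlapped, at -0.26 (adjusted p = 0.48). Wee1, a kinase of the cell cycle, was near level in 5 arrays (6.09, 6.09 and 6.12 in TFEB KO, 6.13 and 6.16 in WT 1 and WT 2) and stood at 6.90 in WT 3. Its dimmer probe set lay lower at -0.47 (adjusted p = 0.15). Nampt, the rate-limiting enzyme of NAD salvage, was at 0.28 (adjusted p = 0.20) on its brighter probe set and at -0.05 (adjusted p = 0.85) on the other, so its direction is not settled. Vegfa, the growth factor of blood vessels, was at -0.60 (adjusted p = 0.062) and -0.50 (adjusted p = 0.11) on its 2 probe sets. Pdk4, the kinase that shuts off pyruvate dehydrogenase, was at 0.70 (adjusted p = 0.16), and Tbc1d1, a regulator of glucose transporter traffic, at 0.75 (adjusted p = 0.12), with 0.90 (adjusted p = 0.15) and 0.17 (adjusted p = 0.55) on its dimmer probe sets. Hexokinase 2 (Hk2, -0.16), the glucose transporter Slc2a4 (-0.21), Tcap (-0.15), Ucp3 (0.19), Klf15 (0.26) and Myod1 (0.26) had adjusted p-values of 0.40 to 0.76 on their brightest probe sets. The dimmer probe set of Slc2a4 was at -0.54 (adjusted p = 0.082), and that of Ucp3 turned to -0.13 (adjusted p = 0.85). Without KO 1 both Vegfa and Tbc1d1 passed the test, and Vegfa also did under array weights or a trended, robust moderation.

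**Figure D4:**
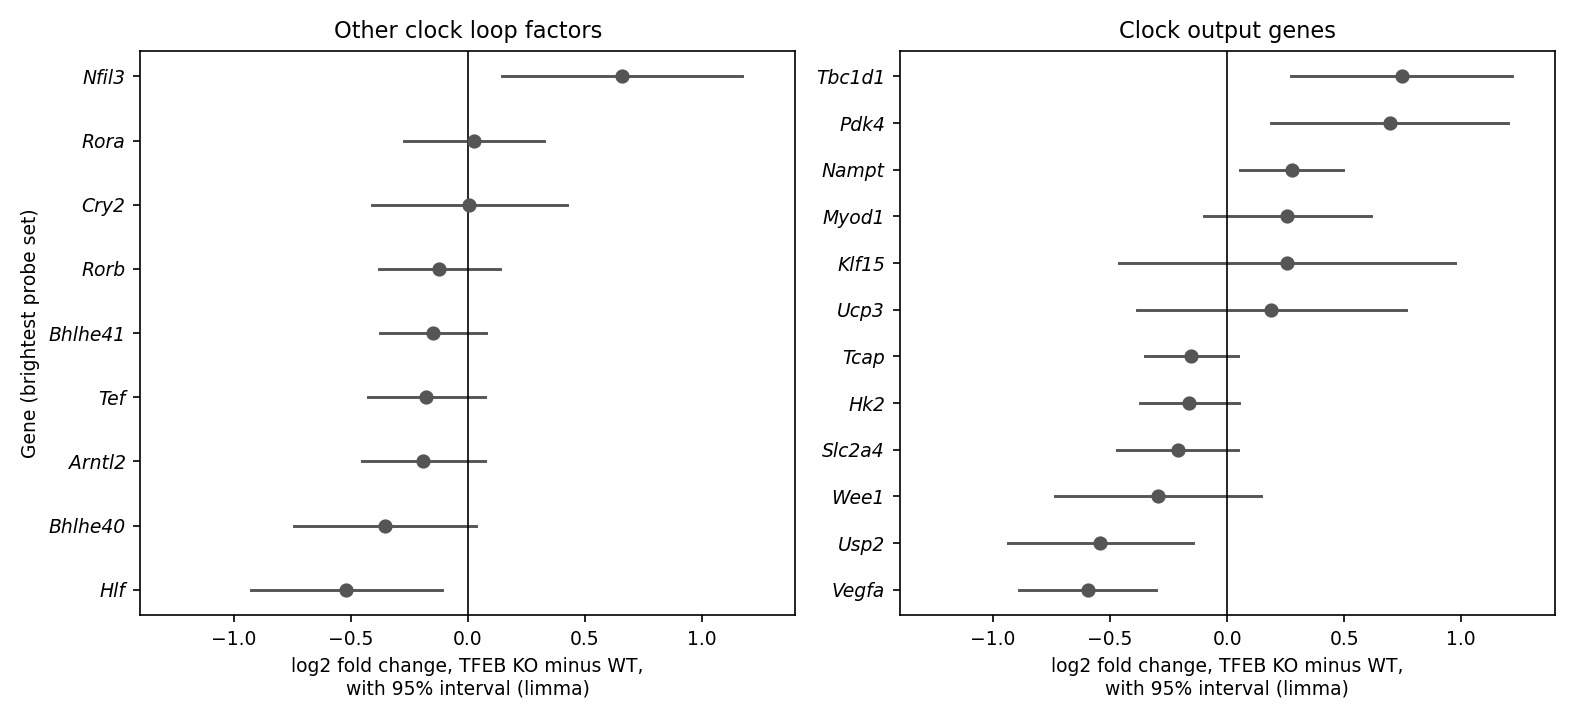
Log2 fold change (TFEB KO minus WT, horizontal axes) with its unadjusted 95% interval from limma for 9 other factors of the clock loop (left) and 12 clock output genes (right), on the brightest probe set of each gene. Values run from -0.52 for Hlf to 0.66 for Nfil3 on the left and from -0.60 for Vegfa to 0.75 for Tbc1d1 on the right.

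Kinases, ubiquitin ligases and cofactors that act on clock proteins were counted over 23 genes, of which 18 were measured. By limma 0 were called, and 0 were higher and 1 lower at an unadjusted p under 0.05 (7.81% and 9.40% of all probe sets). The median log2 fold change was 0.04. Timeless, which binds PER and CRY proteins, had the smallest p, at -0.31 (SE 0.11, adjusted p = 0.19).

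Signals from the body set peripheral clocks, above all glucocorticoids, body temperature and feeding, and genes that answer the first 2 were counted beside the clock. These lists were chosen with earlier results of these data known, so their counts are descriptive. Of 15 measured genes that glucocorticoids induce, 2 rose, the metallothioneins Mt2 (2.73, adjusted p = 0.0029) and Mt1 (2.19, adjusted p = 0.0029), which metals induce as well. With the mean of all its probe sets Mt1 stood lower, at 1.16 (adjusted p = 0.0063 from limma), so its probe sets differ in size of change. The list's median log2 fold change was 0.54, with 8 higher and 0 lower at an unadjusted p under 0.05 (7.81% and 9.40% of all probe sets). TFEB KO 1 stood apart, with a list median of 0.19 against the WT mean, where TFEB KO 2 and 3 had 0.68 and 0.63. Its summed level of 20300 lay within the WT range of 16310 to 21850, below the 28000 and 28810 of TFEB KO 2 and 3. Per1, induced by the same hormones and not part of the list, lay at -0.55 with overlapping groups (adjusted p = 0.46 from limma), and at -0.16 without WT 3. Of 12 measured heat shock genes 5 rose, among them Hsp90aa1 (1.15, adjusted p = 0.015), Hsph1 (0.98, adjusted p = 0.020), Hspa1a (2.65, adjusted p = 0.025), whose near-identical copy may share its probe set, and Dnaja1 (0.80, adjusted p = 0.041). Without 1 array the number called was 2 to 6 for the glucocorticoid list (6 without KO 1) and 0 to 5 for the heat shock list (0 without WT 1, WT 3 or KO 2). Cirbp, a protein that cold induces and heat lowers, read 7.78, 7.75 and 7.76 in TFEB KO and 8.04, 8.20 and 8.12 in WT arrays, without overlap, at -0.36 (SE 0.09, adjusted p = 0.089). Rbm3, its relative, has no probe set of its own. The part of these signals in the clock values was not tested.

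Genes whose values over the 6 arrays were most like those of Per3, the member with the largest change on its brightest probe set, were sought among 6845 genes of at least median brightness. Likeness was the root mean square distance of log2 values minus the WT mean. The 5 nearest were the glutathione transferase Gstm2 (distance 0.116), the phospholipase Pla2g7 (0.121), Kazald1 (0.149), the lipid transfer protein Pitpnc1 (0.171) and Fxyd6 (0.181). Of the lists of other clock genes Usp2 was the nearest, at rank 47 (distance 0.300), with Vegfa at rank 66 (0.334) and Hlf at rank 82 (0.350). Since the arrays of Per3 fall into their groups, genes with a like fall in TFEB KO muscle are near it by this measure.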

How the data were processed

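Muscle RNA of 6 mice, 3 TFEB KO and 3 WT, was hybridised to 1 Affymetrix array each. The deposited values are log2 values that the authors computed by RMA, with affy named in the submitters' processing notes and no version stated in the sources used here. The table holds 22690 probe sets, from which 64 array controls were removed. Gene names came from the platform annotation (20380 with 1 symbol, 691 with several, 1555 with none), and 17 name a member. A gene is judged on its brightest probe set, by the mean of 6 arrays.

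The groups, taken from the sample titles, were compared with limma 3.58.1 in R 4.3.3 (lmFit and eBayes, two-sided, Benjamini-Hochberg over 22626 probe sets, adjusted p under 0.05). Intervals are unadjusted. Summed levels of a list are sums of values taken back to the linear scale, in arbitrary units. Figures were drawn with matplotlib 3.10.9 in Python 3.11.15. The test was tried on simulated data. Having 3 arrays a group bounds the precision.

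The members and lists were chosen with earlier results of these data known. The text names all members, all genes of the 2 lists of loop factors and output genes, up to 4 called genes of each other list or the one with the smallest p, Tfeb, and the 5 genes most like the member with the largest change. Promoter windows are from RefSeq, GRCm38.p6.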

Additional observations from a re-analysis of the deposited data

How the results depend on the processing

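Each result was recomputed under 16 other settings, except that averaging probe sets leaves no count of probe sets. Over all probe sets, 170 were called higher and 191 lower, against 17 to 235 higher and 4 to 203 lower without 1 array, 241 and 296 with array weights, and 0 and 1 with the adjusted t-test of the methods (1338 and 1944 unadjusted). The calls of 1 lower and 0 higher clock genes became 0 lower when a gene's probe sets were averaged and with the methods' t-test after adjustment (Per3 at -0.54, adjusted p = 0.0501, and at -0.95, adjusted p = 0.205), and 1 higher with that t-test without adjustment, which called Clock (0.25). Probe sets called lower were 2 after a second quantile normalization, 0 with the adjusted t-test and 4 with the unadjusted one, which also gave 2 higher. Nr1d2 turned to -0.0921 with the mean of its probe sets. Leaving out each array gave 0 to 1 lower genes and probe sets and 0 higher. The range was -1.13 to -0.83 for Per3, -1.12 to -0.58 for Dbp, -1.15 to -0.22 for Per2, -0.81 to -0.16 for Per1, 0.37 to 1.01 for Arntl, 0.18 to 0.29 for Clock, 0.15 to 0.24 for Npas2, 0.03 to 0.19 for Nr1d2, -0.23 to 0.0067 for Nr1d1 (reversed without WT 1) and -0.22 to 0.0628 for Cry1 (reversed without WT 3). Why these calls changed was not tested.

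Among clock output genes, 1 was called lower under array weights, and 1 under a trended, robust moderation, and the unadjusted t-test gave 1 higher and 2 lower. It gave 1 higher and 1 lower among kinases and cofactors, 1 lower for Cirbp, 5 higher for the glucocorticoid list and 9 for the heat shock list, where the adjusted t-test called 0 and 0. Without 1 array, 0 to 1 were called in each direction among output genes, 0 to 1 higher among loop factors, 0 among kinases and cofactors and for Cirbp, 2 to 6 higher in the glucocorticoid list and 0 to 5 in the heat shock list.

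The labels number the mice 1 to 3 in each group. Same-numbered arrays deviated from their group means with correlations of 0.09, 0.05 and 0.27. KO 1 and KO 3 correlated best with the WT array of the same number, and KO 2 with WT 1 (0.17). With 3 arrays a group these values cannot settle whether the mice were paired. The labels state no pairs, so the main test used none. With the replicate number as a block, Per3 stayed called (adjusted p = 0.046), the brightest probe set of Dbp had an adjusted p of 0.080, the counts of called clock genes were the same, and over all probe sets 173 were higher and 124 lower, against 170 and 191 without it.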
